A study of Mus musculus with 9 samples.

Results

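Among the 15975 LSK cells of the 9 libraries that passed the limits on UMIs, genes and mitochondrial RNA, 398 (2.49%) held transcripts of Dntt together with Il7r or Ly6d. LSK cells are the lineage-negative, c-Kit-positive and Sca-1-positive fraction of bone marrow, which holds the hematopoietic stem cells and the earliest progenitors. A cell was counted as an Il7r or Ly6d early lymphoid progenitor, called a member here, when it had at least 1 UMI (unique molecular identifier, a counted transcript molecule) of Dntt and at least 1 UMI of Il7r or of Ly6d. The cells were thus selected on the UMIs of these 3 genes, so their levels are given as a description only, and so is every contrast between members and other cells.

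The cells came from C57BL/6 mice in 3 groups of 3 libraries. Young mice were 10 to 12 weeks old and aged mice were older than 80 weeks, and both received injections of the carrier cyclodextrin. CASIN mice were aged mice that received CASIN, an inhibitor of the small RhoGTPase Cdc42, intraperitoneally at 25 mg/kg every 24 h for 4 days, with harvest on day 5. All 9 libraries were made from sorted cells that had been frozen alive and thawed, and the sort removed cells bearing CD11b, Gr-1, Ter119, CD5, CD8 or B220, the last of these a B cell marker. Equal numbers of male and female mice were used per group, and the labels do not say how many mice each library holds. Sequencing batch 1 held young 1, young 2, aged 1, CASIN 1 and CASIN 2, and batch 2 held young 3, aged 2, aged 3 and CASIN 3.

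Dntt encodes terminal deoxynucleotidyl transferase, which adds bases at the joints of antigen receptor genes and is switched on early in lymphoid progenitors. Il7r encodes the alpha chain of the interleukin-7 receptor, which signals through JAK kinases and STAT5 and is required for the growth of early B and T cell precursors in mice. Ly6d marks lymphoid progenitors that have turned towards the B lineage, a program in which EBF1 and then PAX5 switch on genes of the pre-B cell receptor such as Cd79a, Vpreb1, Vpreb3 and Igll1.

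Libraries differed in quality along the sequencing batch. In batch 2, 59.1% to 66.8% of the barcodes were over the mitochondrial limit of 10%, against 10.96% to 40.6% in batch 1, and 1118 to 2441 cells per library were kept. The libraries held 19237354 to 42780953 UMIs in all barcodes. Of the members, 3 carried a barcode that was also kept in another library, as did 155 of all kept cells. Scrublet called 92 of all kept cells doublets (0.576%), 3 of them members. Members were thinly spread, with 81, 121 and 11 in young 1, 2 and 3, 14, 30 and 17 in aged 1, 2 and 3, and 20, 91 and 13 in CASIN 1, 2 and 3. Summed over its members, a library held 246929 to 2179476 UMIs, the least in aged 1, so that values from the libraries with 11 to 20 members rest on few cells.

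Free RNA can give a cell a few UMIs of genes that it does not express, so the rule was also applied to cells that should fail it. A member held a median of 33 Dntt UMIs (range 1 to 194), against a median of 4 in the Dntt+Flt3+ cells, the 3425 cells with Dntt and Flt3 but neither Il7r nor Ly6d that serve as the nearest comparison. In 4976 cells with Procr and without Flt3, a stem cell-like class that should lack lymphoid genes, 0.0804% had an Il7r UMI (exact 95% interval 0.0219 to 0.206), 0.442% had a Ly6d UMI (0.277 to 0.669) and 5.91% had a Dntt UMI (5.27 to 6.60). The full rule was met by 2 of these cells (0.0402%). Since only 5.91% of them had a Dntt UMI, this share does not give how often Dntt cells meet the rule through stray UMIs. That rate was not tested. All these shares of the Procr+ cells pool the libraries. Among the Procr+ cells without Flt3 or Dntt a Ly6d UMI was found in 1.67% of 539 cells of aged 3 and 0.794% of 504 cells of CASIN 2. The share was at most 0.549% in any other library. Median depth was 17707.5 UMIs in members and 10019 in the Procr+ cells. At the edge of the rule, 14 members had 1 Dntt UMI, 134 had 1 UMI of Il7r and Ly6d in sum, and 256 members had at least 2 of each. Just outside it lay 4093 cells with Dntt and neither Il7r nor Ly6d, and 196 cells with Il7r or Ly6d and no Dntt.

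Markers that the rule did not use were present in the members as well. Arpp21, an early lymphoid gene, had a UMI in 67.6% of members (62.7 to 72.2) and in 0.402% of the Procr+ cells (0.246 to 0.620). Blnk, the adaptor protein of B cell receptor signalling, had a UMI in 36.2% of members (31.5 to 41.1) and in 0.583% of the Procr+ cells (0.391 to 0.836). Their levels, in CPM (UMIs scaled to the same total in each class), were 108 for Arpp21 in members against 16.4 in the Dntt+Flt3+ cells, and 54.8 for Blnk against 3.38, and both were higher in members in all 9 libraries. Levels of members in this and the next paragraph are over the 394 members left after 4 cells full of immunoglobulin transcripts, described below, were set aside.

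Genes of the B lineage carried the largest contrasts. All 22 genes of the B lineage list were higher in members than in the Dntt+Flt3+ cells, and their summed level was 1519 CPM against 245. Part of this sum came from 30 members rich in B lineage genes, described below. Ebf1, the factor that commits cells to the B lineage, was at 218 CPM against 1.62 and was higher in 9 of 9 libraries. Cd79a stood at 129 CPM against 0.371 and Vpreb1 at 105 against 2.28, each in 8 of 9 libraries. Members also held more of Cox6a2 (234 against 15.7 CPM), Irf8 (137 against 40.7) and Clec12a (127 against 35.6), genes known from dendritic and myeloid cells, in all 9 libraries, and 11 of 14 genes of the plasmacytoid dendritic cell list were higher in members, with a sum of 1167 CPM against 685. Irf8 and Clec12a are also on the granulocyte and monocyte list, of which 6 of 18 genes were higher in members, with a sum of 801 against 1035 CPM. Stem cell genes were mostly lower in members, with 1 of 18 higher and a sum of 659 against 1574 CPM. Hlf, a stem cell factor, was at 25.7 CPM in members, 132 in the Dntt+Flt3+ cells and 256 in the Procr+ cells without Dntt. Prtn3, a granule protease of myeloid progenitors, was at 112 against 428 CPM.

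**Figure D1:**
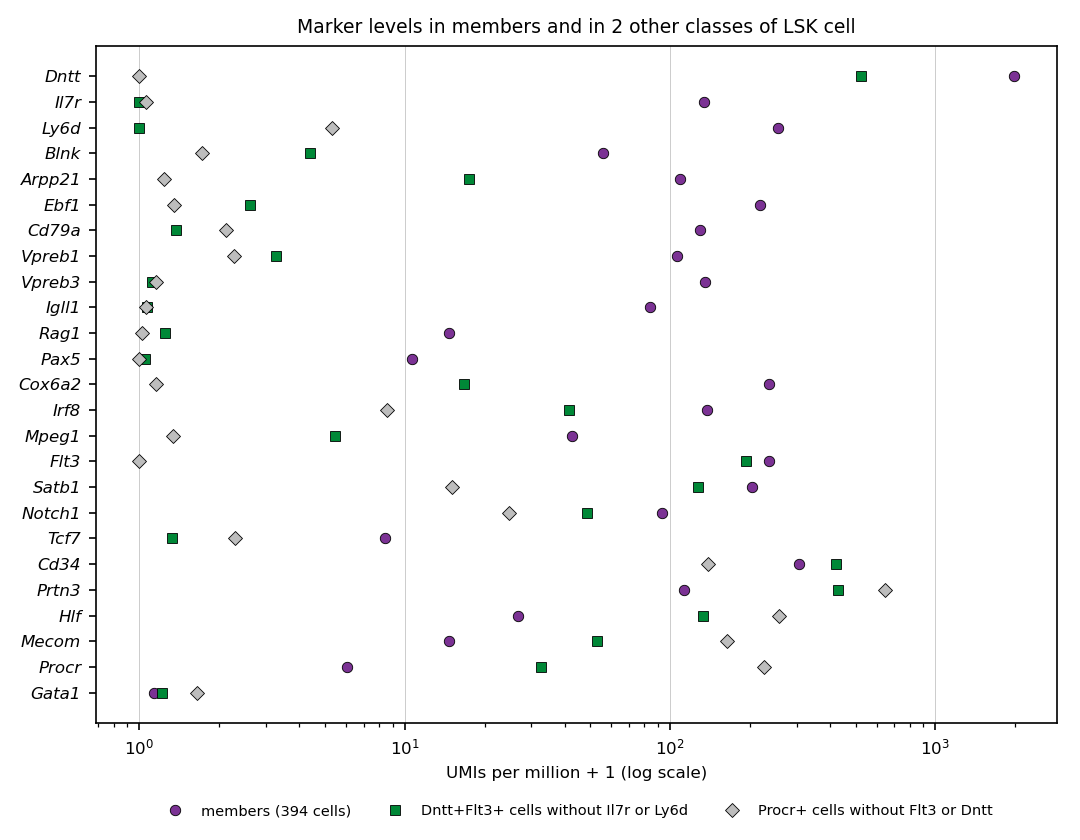
Level of 25 genes (rows) in members within the immunoglobulin limit (purple circles), Dntt+Flt3+ cells (green squares) and Procr+ cells without Flt3 or Dntt (grey diamonds), in CPM plus 1 on a log axis. B lineage genes such as Ebf1 and Cd79a lie far to the right in members, and Hlf, Mecom and Procr lie to the left.

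Lists of other blood cells were summed in the same way. Of the T lineage list, Cd3e was at 0 in members, Tcf7 was at 7.4 CPM against 0.3 with 28 and 26 of its 56 UMIs in young 2 and CASIN 2, and the summed level of the 16 genes was 229 CPM against 136, with 3 genes at 0. In this list 10 of 16 genes were higher in members. Hes1, the most abundant, was at 78.8 against 34.6 CPM (higher in 6 of 9 libraries) and Lck at 54.5 against 22.4 (9 of 9). The mature T and NK cell list summed to 181 CPM in members against 197 in the Dntt+Flt3+ cells, with Nkg7 at 139 CPM its most abundant gene. The erythroid and megakaryocyte list summed to 136 against 438 CPM, the granulocyte and monocyte list to 801 against 1035, the stromal list to 70.8 against 50.4, and the mature B and plasma cell list to 71.5 against 82.6.

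Members were not of a single kind. Il7r alone was found in 244, Ly6d alone in 53, and both in 101. Cells with both genes held 713 CPM of Ebf1 and 432 CPM of Cd79a, whereas cells with Il7r alone held 31.7 and 17.3 CPM. All of Ebf1, Cd79a, Vpreb3, Igll1 and Blnk, a set chosen after the values were seen, were present in 30 members, while 220 members held none of the 5, 113 held 1, 29 held 2, 6 held 3 and none held 4. These 30 cells held 5.4 CPM of Cd34 and 46.5 CPM of Flt3, both progenitor genes, against 325 and 247 CPM in the other members. They held 4187 CPM of Hmgb2, a chromatin protein of dividing cells, and 422 CPM of the proliferation gene Mki67, against 1707 and 132 CPM in the other members. Cox6a2 showed the reverse order, at 19.7 against 248 CPM.

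These kinds were spread unevenly over the libraries. The cells with all 5 B lineage genes numbered 4, 7 and 2 in young 1, 2 and 3, 1, 0 and 1 in aged 1, 2 and 3, and 0, 15 and 0 in CASIN 1, 2 and 3. Of the 30, 15 therefore came from CASIN 2, a library in which 42 of 91 members held both Il7r and Ly6d. Cells with both genes numbered 13, 31 and 1 in the young libraries, 4, 3 and 2 in the aged libraries, and 4, 42 and 1 in the CASIN libraries. Cells with Ly6d alone numbered 12, 6 and 2 in the young, 0, 6 and 8 in the aged, and 1, 12 and 6 in the CASIN libraries. They made up 47.1% of the members of aged 3, 46.2% of those of CASIN 3 and at most 20% in any other library. Aged 3 also had the highest Ly6d share among the Procr+ cells, given above, and its part in these counts was not tested.

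**Figure D2:**
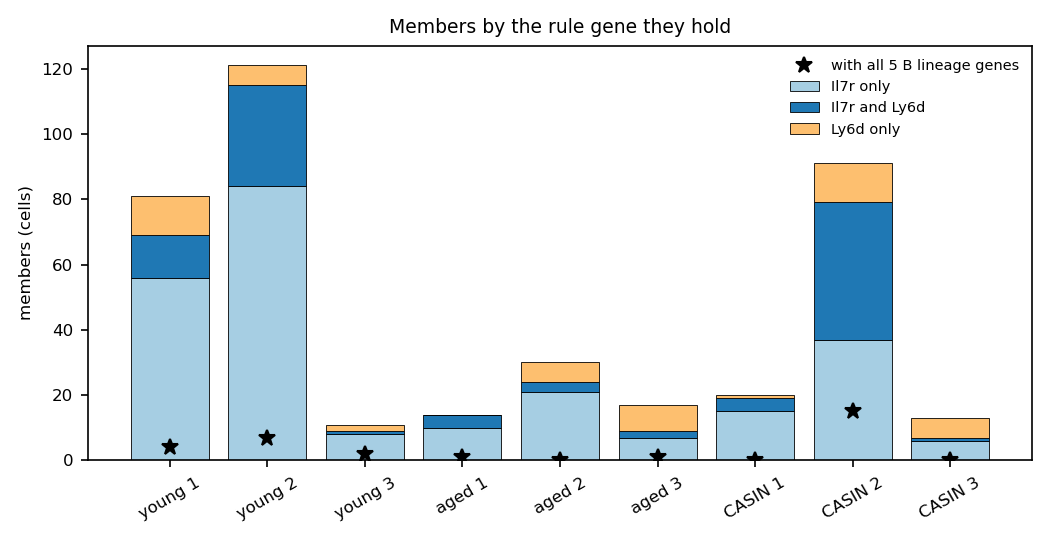
Number of members per library (bars, in cells), split by whether they held Il7r only, both Il7r and Ly6d, or Ly6d only. Stars mark how many members held all of Ebf1, Cd79a, Vpreb3, Igll1 and Blnk, highest in CASIN 2 with 15.

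Another 4 members, 3 in aged 3 and 1 in CASIN 3, drew 36.8% to 51.7% of their UMIs from Igkc, the kappa light chain of antibodies. The next highest member was at 0.0626%. Together these 4 cells held 81413 CPM of the antibody heavy chain gene Ighm, 20747 CPM of Jchain, which links secreted antibodies, 1397 CPM of Ly6d, 44.7 CPM of Dntt and no Il7r. They met the rule and are kept in the counts and fits below unless it is said that they were left out. The B lineage list holds Ighm, and its summed level in members was 1093, 1524 and 2954 CPM in young 1, 2 and 3, 1575, 588 and 21101 CPM in aged 1, 2 and 3, and 601, 2681 and 489 CPM in CASIN 1, 2 and 3. Aged 3 stood at 1131 CPM without its 3 cells. No pair of groups separated in this sum (exact permutation p = 0.8, 0.6 and 0.5 for aged against young, CASIN against aged and CASIN against young), and setting the 4 cells aside turned the aged against young difference from 5898 to -759 CPM and the CASIN against aged difference from -6498 to 143 CPM. Within batch 1 and batch 2 these differences were 267 and 7891 CPM for aged against young, 65.8 and -10355 for CASIN against aged, and 333 and -2464 for CASIN against young. The B lineage sum was also taken without the cells with all 5 B lineage genes and with the 4 immunoglobulin-rich cells kept. It was then 684, 716 and 362 CPM in young 1, 2 and 3, 632, 588 and 21210 CPM in aged 1, 2 and 3, and 601, 791 and 489 CPM in CASIN 1, 2 and 3.

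The share of members did not separate the groups. In young 1, 2 and 3, members made up 3.75% (exact 95% interval 2.99 to 4.64), 5.47% (4.56 to 6.50) and 0.908% (0.454 to 1.62) of the kept cells. In aged 1, 2 and 3 they made up 0.892% (0.489 to 1.49), 1.77% (1.20 to 2.52) and 0.959% (0.560 to 1.53). In CASIN 1, 2 and 3 they made up 1.79% (1.10 to 2.75), 5.05% (4.08 to 6.16) and 0.533% (0.284 to 0.909). The young and CASIN libraries of batch 1 were the highest and the groups overlapped, since young 3 and CASIN 3, both of batch 2, lay within or below the aged libraries.

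The mean share was 3.38% ± 2.31 (SD, n = 3) in young, 1.21% ± 0.491 in aged and 2.46% ± 2.33 in CASIN libraries. Aged libraries were 2.17 percentage points below young ones (-2.17, two-sided exact permutation p = 0.3), with a difference of -3.72 in batch 1 and 0.459 in batch 2. CASIN libraries were 1.25 points above aged ones (p = 0.6 by exact permutation), with 2.53 in batch 1 and -0.834 in batch 2, and -0.922 points from young ones (p = 0.7 by exact permutation), with -1.20 and -0.375. With 3 against 3 the smallest p is 0.1, and after adjustment over the 3 pairs each was 0.7. The direction of the first and second of these differences thus turned between batches, and the batches also differed in the share of barcodes over the mitochondrial limit, whose part in the result was not tested. With no mitochondrial limit at all the shares were 3.66%, 5.30% and 0.606% in young, 0.780%, 1.15% and 0.617% in aged, and 1.47%, 4.76% and 0.301% in CASIN libraries. The intervals cover counting error alone.

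Depth and denominator were varied as well. With each cell thinned to 4000 UMIs, the shares were 1.79%, 3.00% and 0.324% in young 1, 2 and 3, 0.385%, 0.765% and 0.348% in aged 1, 2 and 3, and 0.857%, 3.36% and 0.170% in CASIN 1, 2 and 3. Taken of the cells with a Dntt UMI only, members were 9.19%, 11.3% and 3.96% in young, 6.42%, 7.08% and 3.96% in aged and 7.46%, 17.1% and 3.31% in CASIN libraries. Cells with a Dntt UMI were themselves 40.8%, 48.3% and 22.9% of young, 13.9%, 25.1% and 24.2% of aged and 24.0%, 29.5% and 16.1% of CASIN cells. CASIN 2 was thus the highest library by thinned share and by share of Dntt cells, and CASIN 3 the lowest.

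**Figure D3:**
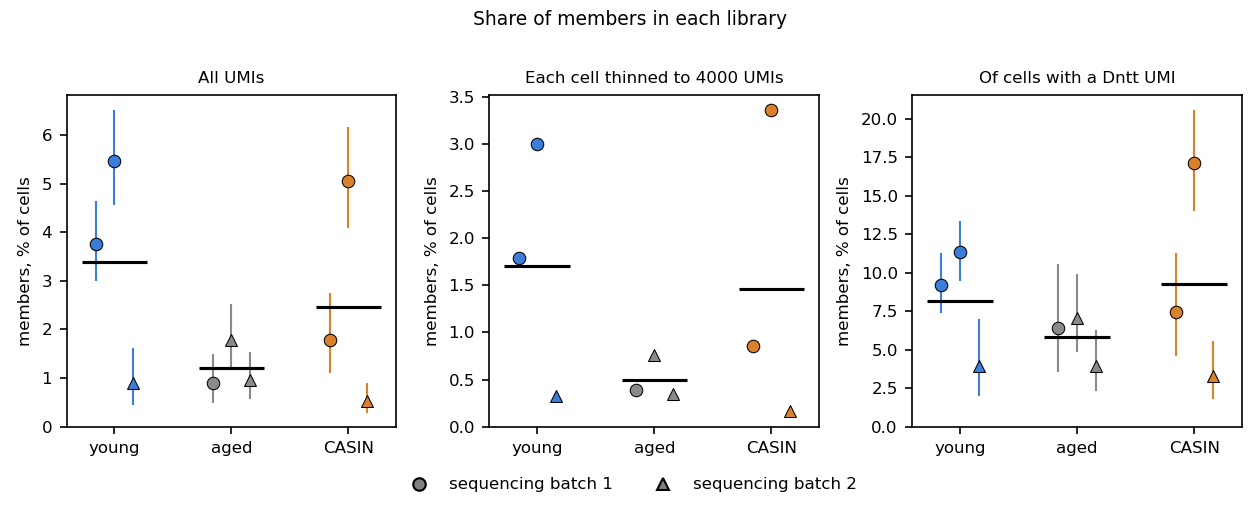
Share of members per library in percent of all kept cells (left), of cells thinned to 4000 UMIs (middle) and of cells with a Dntt UMI (right), in young (blue), aged (grey) and CASIN (orange) libraries of batch 1 (circles) and batch 2 (triangles), with group means as bars and exact 95% intervals as lines where counts are whole. The groups overlap in each panel, and CASIN 3 of batch 2 lies lowest in each.

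Genes were then compared between groups on UMIs summed over the members of each library. Of 5966 genes tested for aged against young, 1 passed (0.0168%) with edgeR's quasi-likelihood test and Benjamini-Hochberg adjustment, whereas DESeq2 called 14, and 474 (7.95%) had an unadjusted p below 0.05, 252 of them higher (4.22%) and 222 lower (3.72%) in aged members. For CASIN against aged no gene passed, DESeq2 called 3, and 383 genes (6.42%) had an unadjusted p below 0.05, 172 of them higher (2.88%) and 211 lower (3.54%). For CASIN against young 3 genes passed (0.0503%), DESeq2 called 3 of which 1, Fabp5, was shared, and 289 (4.84%) had an unadjusted p below 0.05, 133 of them higher (2.23%) and 156 lower (2.61%). These p-values measure the spread between libraries, which the labels do not tie to separate mice. The first and the second comparison share the aged libraries, and the others share the young or the CASIN libraries, so that their values are given side by side and not as separate evidence.

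Nr4a1, a nuclear receptor gene switched on within minutes of antigen receptor or stress signals, was the one gene that passed, and it rose with age. Its level in members was 105, 134 and 339 CPM in young 1, 2 and 3, 227, 1296 and 867 CPM in aged 1, 2 and 3, and 195, 137 and 645 CPM in CASIN 1, 2 and 3. Batch 2 libraries were the higher ones in every group, and within either batch each aged library lay above each young one. With the batch in the model, aged members were higher by 1.37 on the log2 scale (SE 0.204, edgeR adjusted p = 0.0335), and it was not past the threshold without young 1 (adjusted p = 0.166) or young 3 (adjusted p = 0.156). The call was also lost with no batch term (2.17, edgeR adjusted p = 0.568), with the 2 groups fitted alone (edgeR adjusted p = 0.138) and under the stricter rule of at least 2 UMIs (edgeR adjusted p = 0.298). The level in CASIN members gave a log2 difference of -0.75 from aged ones (edgeR adjusted p = 0.381). The Dntt+Flt3+ cells ran in parallel, with 101, 149 and 320 CPM in young, 168, 1350 and 637 CPM in aged and 155, 202 and 397 CPM in CASIN libraries, and the aged against young log2 fold change of the members minus that of these cells was 0.098 (SE 0.211, edgeR adjusted p = 0.995).

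Since Nr4a1 is a target of cyclic AMP and calcium signals through CREB, its promoter is shown with the core letters of the CREB site, TGACG on either strand, in capitals. The sequence is that of RefSeq on GRCm38.p6, the 250 bases before the start that its promoter table uses, at chr15:101266596-101266845 on the plus strand. RefSeq's gene spans chr15:101253902-101274795, so this is the start of a shorter transcript and the window lies inside the gene.
Nr4a1: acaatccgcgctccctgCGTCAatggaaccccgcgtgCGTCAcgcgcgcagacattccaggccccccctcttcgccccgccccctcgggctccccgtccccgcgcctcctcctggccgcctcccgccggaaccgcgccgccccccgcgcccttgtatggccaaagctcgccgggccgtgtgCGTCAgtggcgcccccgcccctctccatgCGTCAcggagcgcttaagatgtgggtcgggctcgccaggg
These letters occurred 4 times in it, and 17.8% of all 32851 RefSeq promoters of this length held them at least once, which describes the window and not a bound factor.

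Nr4a1 belongs to the immediate early and handling response list, genes of rapid signalling and of stress during tissue handling. Of the 30 tested, Nr4a1 included, 27 had values above 0 and 3 below 0 in aged against young members. At an unadjusted p below 0.05, 14 were higher (4.22% of all genes), none was lower in this way, and the median log2 fold change was 0.65 against 0.011 over all genes. In CASIN against aged members 17 of the 30 had an unadjusted p below 0.05 and were lower (3.54% of all genes), and the values of all 30 were below 0, with a median of -0.70. Against young members, those of CASIN mice had a median of -0.03, with 2 genes higher and 3 lower at this level (2.23% and 2.61% of all genes). Dusp5, a phosphatase that restrains ERK signalling, was at 104, 100.5 and 113 CPM in young, 198, 230 and 209 CPM in aged and 91.4, 96.3 and 148 CPM in CASIN libraries 1, 2 and 3. The aged libraries lay above the other 6 without overlap, with log2 differences of 0.95 for aged over young (edgeR adjusted p = 0.158, named after its values were seen) and -0.89 for CASIN over aged (edgeR adjusted p = 0.205). Zfp36, which destabilizes inflammatory transcripts, had -1.23 (edgeR adjusted p = 0.205) and Ier3, an early survival gene, -1.02 (edgeR adjusted p = 0.205) in CASIN against aged members. DESeq2, which gave no adjusted p for 3701 genes in aged against young, called Dusp5, Zfp36, Nr4a2, Egr1 and Junb of this list besides Nr4a1 there, and Zfp36 in CASIN against aged (-1.28, adjusted p = 0.00949). The summed level of the list was 10748, 10447 and 6506 CPM in young, 10084, 14705 and 12417 CPM in aged and 8825, 7787 and 9218 CPM in CASIN libraries, so that aged 1 did not exceed the young libraries of its batch in the sum. The median mitochondrial share of members was 6.47% in aged 2 and 2.43% to 4.08% in the other 8 libraries, and its part in these values was not tested.

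**Figure D4:**
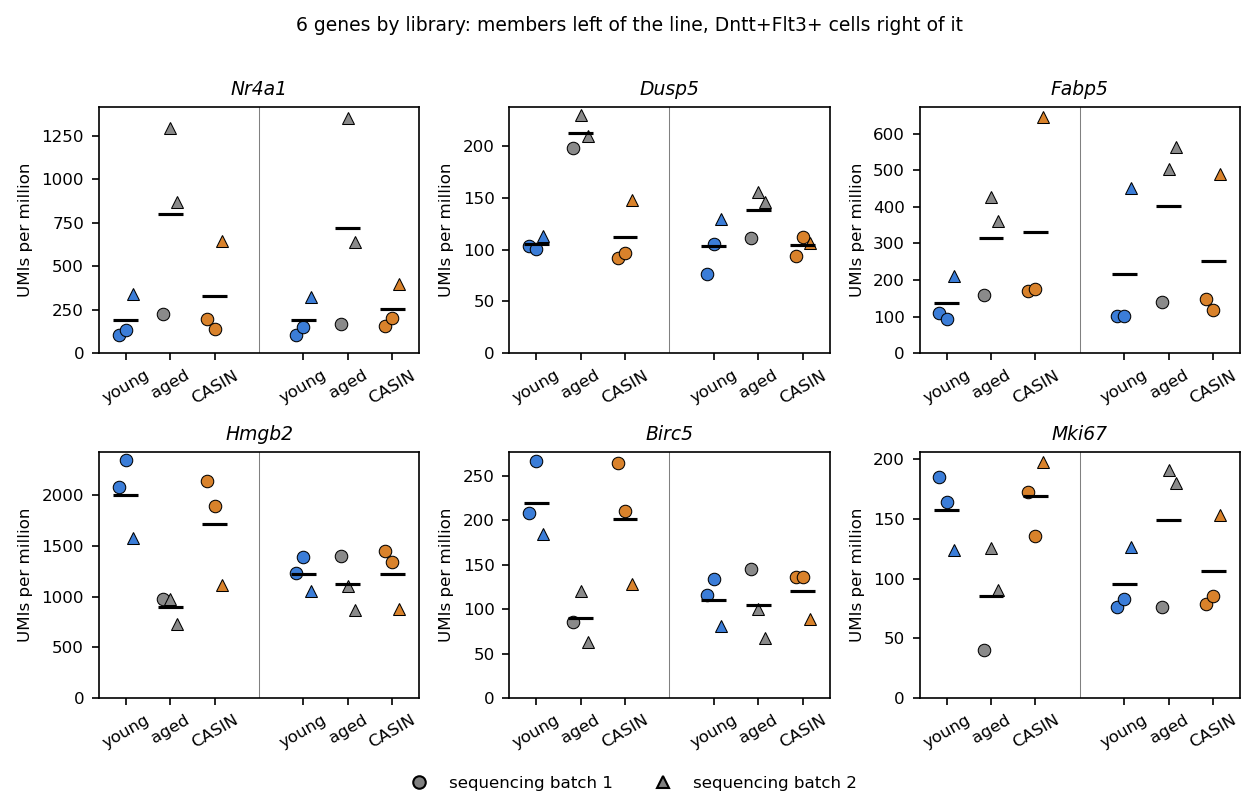
Levels of Nr4a1, Dusp5, Fabp5, Hmgb2, Birc5 and Mki67 per library in CPM, members left of the line and Dntt+Flt3+ cells right of it, by group, with batch 1 as circles, batch 2 as triangles and group means as bars. Aged members lie below the others for Hmgb2 and Birc5, which is not seen in the Dntt+Flt3+ cells.

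Cell cycle genes were followed in members and in the Dntt+Flt3+ cells. The 52 genes of the G2 and M phase list, which build the spindle and condense chromosomes, summed in members to 7709, 8262 and 5087 CPM in young 1, 2 and 3, 3483, 4753 and 3768 CPM in aged 1, 2 and 3, and 7825, 6819 and 4852 CPM in CASIN 1, 2 and 3. All aged libraries lay below all others, although young 3 and CASIN 3 were close to aged 2. Means were 7019 ± 1696 (SD, n = 3) in young, 4001 ± 667 in aged and 6499 ± 1512 CPM in CASIN libraries. Aged differed from young by -3018 CPM (two-sided exact permutation p = 0.1, the smallest possible, and 0.15 after adjustment over the 3 pairs), with -4502 in batch 1 and -827 in batch 2. CASIN differed from aged by 2497 CPM (exact permutation p = 0.1, adjusted 0.15), with 3839 and 591 within the batches, and from young by -521 CPM (exact permutation p = 0.6), with -663 and -236. The CASIN against aged groups overlapped under the stricter rule of at least 2 UMIs (2055 CPM, exact permutation p = 0.4, with 3637 in batch 1 and -798 in batch 2), and the aged against young groups with a mitochondrial limit of 5% (-2767 CPM, exact permutation p = 0.2). The members of aged 3 held 363298 UMIs with the immunoglobulin-rich cells and 290914 without them. Without the 4 immunoglobulin-rich cells, aged differed from young by -2744 CPM (exact permutation p = 0.1), with -416 in batch 2. CASIN then differed from aged by 2330 CPM (exact permutation p = 0.1), with 500 in batch 2, and from young by -414 CPM, with 84.0 in batch 2.

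The sum was also taken without the cells with all 5 B lineage genes, whose Hmgb2 and Mki67 levels are given above. It was then 7482, 7547 and 3392 CPM in young, 2343, 4753 and 3562 CPM in aged and 7825, 5387 and 4852 CPM in CASIN libraries. Young 3, left with 9 members, then fell among the aged libraries, the aged against young difference was -2587 CPM (exact permutation p = 0.3) and its sign in batch 2 turned to 766, while CASIN libraries still lay above aged ones (2468 CPM, exact permutation p = 0.1). In the Dntt+Flt3+ cells the sum was 4676, 5106 and 4537 CPM in young, 5039, 4875 and 4198 CPM in aged and 5188, 4995 and 4328 CPM in CASIN libraries, with overlapping groups. The S phase list, genes of DNA replication, summed in members to 3833, 3241 and 3360 CPM in young, 3815, 3447 and 1954 CPM in aged and 3966, 3202 and 2960 CPM in CASIN libraries, with exact permutation p = 0.8, 0.8 and 0.7 for aged against young, CASIN against aged and CASIN against young. The differences were -406, 304 and -102 CPM, with 278, -231 and 47.5 in batch 1 and -660, 260 and -400 in batch 2.

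**Figure D5:**
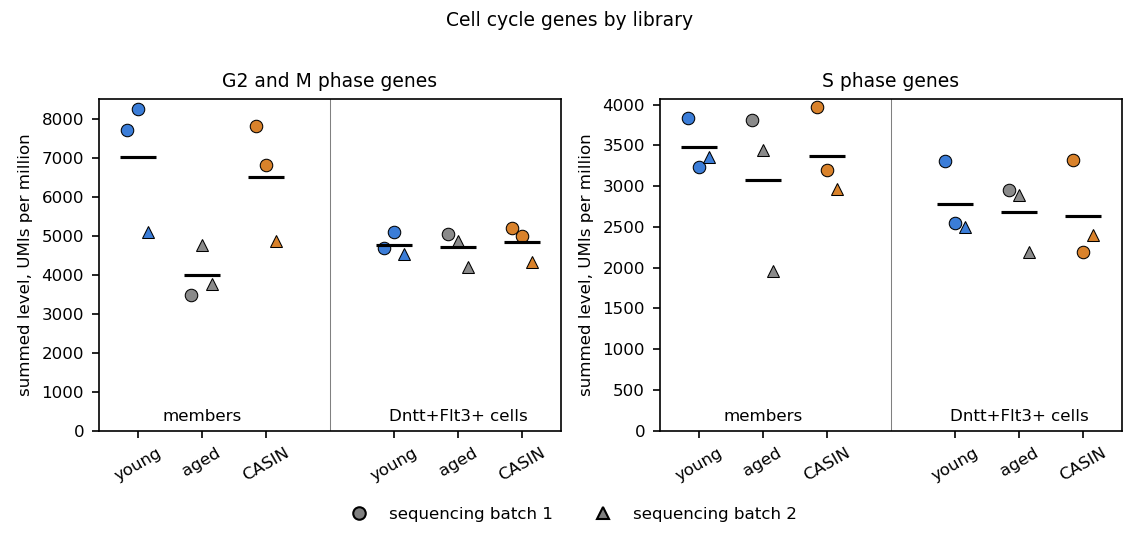
Summed level of the G2 and M phase list (left) and the S phase list (right) per library in CPM, in members and in Dntt+Flt3+ cells, with batch 1 as circles, batch 2 as triangles and group means as bars. Aged members hold 3483 to 4753 CPM of G2 and M phase genes and the other members 4852 to 8262, whereas the Dntt+Flt3+ cells overlap.

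Gene by gene, 15 of 44 G2 and M phase genes tested were lower in aged than in young members at an unadjusted p below 0.05 (3.72% of all genes) and none higher, with a median log2 fold change of -0.49. In CASIN against aged members 13 of 44 were higher in this way (2.88% of all genes) and none lower, with a median of 0.44. CASIN against young members had a median of -0.07, with 2 of 44 lower (2.61% of all genes). Hmgb2 was at 2077, 2342 and 1577 CPM in young, 976, 974 and 732 CPM in aged and 2142, 1894 and 1115 CPM in CASIN libraries 1, 2 and 3. The aged libraries lay below all others, with log2 fold changes of -0.89 for aged over young (SE 0.152, edgeR adjusted p = 0.0551) and 0.70 for CASIN over aged (SE 0.154, edgeR adjusted p = 0.267). For aged over young Hmgb2 passed in 6 of 17 alternatives (-1.10 to -0.68 over all 17). These were DESeq2 (adjusted p = 0.000260), no filter on low counts, the replicate number as a block (edgeR adjusted p = 0.0484), without aged 2 (0.00673), without the immunoglobulin-rich members (0.0170), and a filter on the residual of log genes on log UMIs per cell, with the same value. Birc5, which guides chromosome segregation, had -1.002 and 0.93 in the same contrasts (edgeR adjusted p = 0.254 and 0.416). Of the 41 S phase genes tested, 2 were higher and 5 lower in aged than in young members at an unadjusted p below 0.05 (4.22% and 3.72% of all genes), and 2 were higher and 3 lower in CASIN than in aged ones (2.88% and 3.54%). Tyms, which makes thymidylate, had -0.80 and 0.55 (edgeR adjusted p = 0.254 and 0.674), and Ung, which removes uracil from DNA, had 1.53 and -1.05 (edgeR adjusted p = 0.158 and 0.513). Over all 17 alternatives Ung ran from 0.80 to 1.75 for aged over young and from -1.24 to -0.39 for CASIN over aged. It passed in 1 of them for aged over young and in none for CASIN over aged. Ung had 40, 31 and 10 UMIs in aged 1, 2 and 3.

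The group effects of members were tested against those of the Dntt+Flt3+ cells of the same libraries. Of 10614 genes, 10 differed for aged against young (0.0942%), 2 higher (0.0188%) and 8 lower (0.0754%) in members, with 5.29% at an unadjusted p below 0.05, and 10 differed for CASIN against aged (0.0942%), 7 higher (0.066%) and 3 lower (0.0283%), with 5.46% at an unadjusted p below 0.05. For CASIN against young none differed with edgeR, 407 genes (3.83%) had an unadjusted p below 0.05, and DESeq2 was not run for this test. Hmgb2 was in both sets. Its aged against young log2 fold change was lower in members by 0.98 (-0.98, SE 0.120, edgeR adjusted p = 9.04e-06), and its CASIN against aged log2 fold change was higher in members by 0.78 (SE 0.122, edgeR adjusted p = 0.000884). In the Dntt+Flt3+ cells Hmgb2 stood at 1233, 1391 and 1052 CPM in young, 1403, 1105 and 869 CPM in aged and 1448, 1342 and 875 CPM in CASIN libraries, which overlapped.

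Histone genes were in both sets as well. The aged against young effect in members minus that in the Dntt+Flt3+ cells was -1.20 for Hist1h2ap (SE 0.210, edgeR adjusted p = 0.00676), -1.18 for Birc5 (SE 0.220, edgeR adjusted p = 0.0148), -1.24 for Mki67 (SE 0.243, edgeR adjusted p = 0.0190), and also below 0 for the histone genes Hist1h2ae, H2afx and Hist1h1e. In the CASIN against aged effect, the difference was 1.28 for Hist1h2ap (SE 0.212, edgeR adjusted p = 0.00220) and also above 0 for Hist1h2ae, Hist1h1e and Hist1h4d, and it was -0.81 for Ier3 (SE 0.166, edgeR adjusted p = 0.0331) and -1.16 for the transcription factor gene Zbtb20 (SE 0.247, edgeR adjusted p = 0.0447). Replication-dependent histone transcripts lack a long poly(A) tail, so that 3′ counting captures them in part. Mki67 was at 185, 164 and 124 CPM in the members of young 1, 2 and 3, 40.5, 125 and 90.8 CPM in those of aged 1, 2 and 3, and 173, 136 and 198 CPM in those of CASIN 1, 2 and 3, and aged 1 was the lowest of all. Cxcl10, a chemokine induced by interferon and NF-kB, had a higher effect in members for aged against young (3.04, SE 0.606, edgeR adjusted p = 0.0215), and rested on 17, 84 and 5 UMIs in all young, aged and CASIN members. It was not past the threshold without young 3 (0.92, edgeR adjusted p = 1.0), without the 4 immunoglobulin-rich members (2.84, edgeR adjusted p = 0.0867) or against all Dntt cells without Il7r or Ly6d (2.86, edgeR adjusted p = 0.0777). The antibody gene Ighg2b also passed, with 75, 3 and 2449 UMIs in young, aged and CASIN members, 2417 of them in CASIN 3.

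Part of these calls depended on aged 1, which held 14 members. Without that library 4 of the 10 and 3 of the 10 genes still passed, Hmgb2 among the former, whereas in the aged against young effect Hist1h2ap (-0.49, edgeR adjusted p = 0.759), Birc5 (-0.81, adjusted p = 0.627) and Mki67 (-0.98, adjusted p = 0.393) did not, and in the CASIN against aged effect Hmgb2 did not (0.52, adjusted p = 0.494). Zbtb20 passed in 7 of 13 alternatives (-1.29 to -0.73). It was lost without aged 1 (edgeR adjusted p = 0.246), CASIN 1 (0.123), CASIN 2 (0.0601) or CASIN 3 (0.127), with no class by batch term (0.646) and without the cells with all 5 B lineage genes (0.138). Leaving out aged 2 or aged 3 gave 38 and 37 genes for aged against young and 34 and 39 for CASIN against aged. Without the cells with all 5 B lineage genes, 12 and 9 genes passed, 5 and 8 of them shared with the lists above, and Hmgb2 did not in either (-0.78 and 0.76, edgeR adjusted p = 0.0979 and 0.128), nor did Birc5 (-1.44, adjusted p = 0.113) and Mki67 (-1.21, adjusted p = 0.208) for aged against young. Over all 13 alternatives the aged against young difference ran from -1.09 to -0.73 for Hmgb2, from -1.44 to -0.81 for Birc5 and from -1.67 to -0.98 for Mki67.

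Hmgb2 and Mki67 are shown with the 250 bases before the starts that RefSeq's promoter table uses, since cell cycle genes of this kind often carry the letters TTTGAA, known as the cell cycle genes homology region. These and the letters of the CCAAT box, each on either strand, are in capitals and do not overlap. The sequences are from RefSeq on GRCm38.p6, at chr8:57511593-57511842 on the plus strand for Hmgb2 and chr7:135716380-135716629 on the minus strand for Mki67. RefSeq's span of Mki67, chr7:135689784-135716450, reaches into that window through a longer transcript.
Hmgb2: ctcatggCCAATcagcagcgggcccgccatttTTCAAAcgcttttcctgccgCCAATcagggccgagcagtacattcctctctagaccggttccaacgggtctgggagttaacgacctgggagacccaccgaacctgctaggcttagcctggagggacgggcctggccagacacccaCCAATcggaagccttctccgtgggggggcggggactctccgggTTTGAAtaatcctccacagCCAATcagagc
Mki67: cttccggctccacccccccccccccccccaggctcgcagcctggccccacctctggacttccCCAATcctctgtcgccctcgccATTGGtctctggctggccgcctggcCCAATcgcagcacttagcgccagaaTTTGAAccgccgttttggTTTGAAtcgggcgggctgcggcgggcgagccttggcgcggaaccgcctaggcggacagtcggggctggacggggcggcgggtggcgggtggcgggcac
Both promoters held TTTGAA 2 times, and CCAAT occurred 4 times before Hmgb2 and 3 times before Mki67. Over all 32851 promoters of this length the share with at least one match was 16% for TTTGAA and 33.8% for CCAAT. The window before Birc5 held neither set of letters.

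CASIN members differed from young members in 3 genes. Fabp5, a fatty acid carrier, rose with a log2 fold change of 1.08 (SE 0.165, edgeR adjusted p = 0.0273), from 109, 94.5 and 211 CPM in young 1, 2 and 3 to 171, 176 and 645 CPM in CASIN 1, 2 and 3. These groups overlap across batches and do not overlap within either batch. Aged 1, 2 and 3 were at 158, 426 and 361 CPM, also above the young libraries of their batch. The log2 value was 0.70 for aged over young (edgeR adjusted p = 0.257) and 0.38 for CASIN over aged (edgeR adjusted p = 0.769). Isg15, a ubiquitin-like protein induced by type I interferon, fell by 1.97 on the log2 scale (SE 0.311, edgeR adjusted p = 0.0273), from 42.9, 44.5 and 7.53 CPM to 14.2, 8.82 and 3.88 CPM. Ddx4, an RNA helicase gene best known from germ cells, fell by 1.96 (SE 0.314, edgeR adjusted p = 0.0273), from 44.0, 43.6 and 18.8 CPM to 6.10, 10.2 and 15.5 CPM. Fabp5 failed the threshold when any of the 6 libraries was left out (edgeR adjusted p of 0.0522 to 0.620), Isg15 when any but young 3 was, and Ddx4 when any but young 3 or CASIN 3 was. With DESeq2 Isg15 and Ddx4 had adjusted p = 0.244 and 0.0907, with no batch term none of the 3 genes passed, and under the stricter rule the log2 fold change of Fabp5 was 0.48 (edgeR adjusted p = 1.0). In the Dntt+Flt3+ cells the log2 values of Fabp5, Isg15 and Ddx4 were 0.32, -1.02 and -0.57, none past the threshold (edgeR adjusted p = 0.688, 0.179 and 0.717), and the differences between the classes did not pass either (edgeR adjusted p = 0.161 for Fabp5 and 1 for Isg15 and Ddx4). The difference for Fabp5 did pass with no filter on low counts, without young 1, without the 4 immunoglobulin-rich members and without the cells with all 5 B lineage genes.

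Genes of the type I interferon response gave 3 of 10 lower and none higher at an unadjusted p below 0.05 in CASIN against young members (2.61% of all genes), with Isg15 the one that passed and a median of -0.24. Aged against young members had none in either direction and a median of -0.28, and CASIN against aged members had 1 lower (3.54% of all genes) and a median of -0.24. MHC class II genes, which present antigen, had 3 of 8 higher at this level in CASIN against young members (2.23% of all genes), with log2 values of 1.79 for H2-Eb1, 1.40 for H2-Aa and 0.81 for H2-Ab1 (edgeR adjusted p = 0.220, 0.612 and 0.681). H2-Eb1 was at 18.6, 11.01 and 30.1 CPM in young 1, 2 and 3, 4.05, 78.3 and 41.3 CPM in aged 1, 2 and 3 and 26.4, 68.5 and 66.0 CPM in CASIN 1, 2 and 3. In aged against young members no MHC class II gene reached this level, although the median was 0.67. The Dntt+Flt3+ cells, in which 0.153% of genes passed for aged against young and 0.117% for CASIN against young, had H2-Eb1 higher by 1.74 in aged against young and by 1.74 in CASIN against young libraries (edgeR adjusted p = 0.00791 and 0.00314), and the members' effect on H2-Eb1 did not differ from it past the threshold (differences of -0.90, SE 0.411, and -0.06, SE 0.290).

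Interleukin-7 receptor signalling was followed through 19 genes, of which 11 were tested. In aged against young members 3 had an unadjusted p below 0.05 and were higher (4.22% of all genes), with a median of 0.46. They were Bcl2l11 (0.57), a promoter of cell death, Pim1 (0.51), a STAT5 target kinase, and Mcl1 (0.48), which keeps lymphoid progenitors alive (edgeR adjusted p = 0.505, 0.505 and 0.475). Pim1 was at 326, 322 and 429 CPM in young, 462, 482 and 713 CPM in aged and 260, 277 and 486 CPM in CASIN libraries 1, 2 and 3, and within either batch the aged libraries lay above the young ones. Its value in CASIN against aged members was -0.59 (edgeR adjusted p = 0.556), the only one of the list at this level (3.54% of all genes were lower in this way), with a median of -0.22. CASIN against young members had none at this level and a median of 0.11.

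Of the regulators of lymphoid priming none passed the threshold. Of 25 tested, 2 were higher and 1 lower at an unadjusted p below 0.05 in aged against young members (4.22% and 3.72% of all genes), with Bcl11a at 0.58, Runx3 at 0.47 and Sox4 at -0.40 (edgeR adjusted p = 0.512, 0.580 and 0.532) and a median of 0.01. In CASIN against aged members 3 were lower (3.54% of all genes), Ikzf2 at -1.33, Satb1 at -0.55 and Bcl11a at -0.48 (edgeR adjusted p = 0.652, 0.666 and 0.769), with a median of -0.10, and in CASIN against young members Sox4 was lower (2.61% of all genes) at -0.35 (edgeR adjusted p = 0.986) with a median of 0.04. Satb1, which organizes chromatin in lymphoid cells, was at 193, 209 and 162 CPM in young, 186, 304 and 209 CPM in aged and 150, 192 and 144 CPM in CASIN libraries, and the groups overlapped. Outside the rule, Blnk had log2 values of -0.75, 0.69 and -0.05 and Arpp21 of 0.19, -0.35 and -0.16 for aged against young, CASIN against aged and CASIN against young (lowest edgeR adjusted p = 0.846).

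The NF-kB and chemokine list had 4 of 20 genes higher (4.22% of all genes) and none lower at an unadjusted p below 0.05 in aged against young members, and 6 of 20 lower (3.54% of all genes) and none higher in CASIN against aged members, with medians of 0.28 and -0.42. Nfkbiz, an NF-kB cofactor, was at 50.7, 50.5 and 41.4 CPM in young, 68.8, 143 and 160 CPM in aged and 67.1, 65.8 and 66.0 CPM in CASIN libraries, with log2 values of 1.24 and -0.78 (edgeR adjusted p = 0.158 and 0.624), and the aged libraries lay above all others. Endoplasmic reticulum folding genes had none of 20 at this level in aged against young members and 1 of 20, Manf at -0.47 (edgeR adjusted p = 0.660), lower in CASIN against aged members (3.54% of all genes). MHC class I genes had 1 of 13 lower in aged against young members (3.72% of all genes), Tap2 at -0.59 (edgeR adjusted p = 0.410), and none in CASIN against aged members.

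In the lists of other cell types no gene passed the threshold in members as reported, although several did under alternatives, among them Ctsg, Lyz2, Ly6c2 and Igkc as given below. Without aged 2, Jchain, Iglc1 and Iglc2 of the mature B list passed for aged against young and Jchain for CASIN against aged. Ly86 of the granulocyte and monocyte list passed in 1 alternative for CASIN against young. Of the granulocyte and monocyte list, 4 of 10 were higher and 1 lower at an unadjusted p below 0.05 in aged against young members (4.22% and 3.72% of all genes), among the former Prtn3 (0.85), Ctsg (1.62) and Csf3r (1.07), and 2 were lower in CASIN against aged members (3.54% of all genes), Csf3r (-1.66) and Lyz2 (-1.62), none past the threshold (edgeR adjusted p of 0.416 or more). For aged against young Ctsg, with 0 UMIs in young 3 and 3 in aged 3, ran from 0.43 with no batch term to 8.75 without aged 1, and passed only with no filter on low counts. In CASIN against young members 2 of 10 genes of this list were higher (2.23% of all genes), among them Ctsg (1.31, edgeR adjusted p = 0.634). There Ctsg passed in 3 of 17 alternatives, including the replicate number as a block and only the 2 groups compared. Lyz2 was at 162, 752 and 66.1 CPM in aged 1, 2 and 3 and at 83.5 to 122 CPM in the other libraries, and its CASIN against aged value was -0.42 without aged 2 (edgeR adjusted p = 0.886) and -1.995 without aged 3 (edgeR adjusted p = 0.0378). The summed level of the granulocyte and monocyte list in members was 635, 749 and 470 CPM in young, 745, 1595 and 556 CPM in aged and 815, 888 and 614 CPM in CASIN libraries, and its part in the results above was not tested. The plasmacytoid dendritic cell list had 3 of 11 higher in aged (4.22% of all genes) and 2 of 11 higher in CASIN (2.23% of all genes) than in young members, with Runx2 at 0.52 and 0.50 and Cox6a2 at 0.88 in aged members (edgeR adjusted p = 0.585, 0.942 and 0.609). Cox6a2 ran from 0.009 with no batch term to 1.61 without aged 1. Ly6c2 was also at that level in both, with 183 of its 238 UMIs in aged members, and was not tested without the immunoglobulin-rich cells. It passed in both comparisons with the replicate number as a block and with no filter on low counts. For aged against young it also passed without aged 2. Of the stem cell list, 1 of 6 was higher in aged against young members (4.22% of all genes), Ifitm1 at 0.50 (edgeR adjusted p = 0.621), and in CASIN against aged members Ifitm1 (-0.78) and Hlf (-1.35) were lower and Ly6a (1.01) was higher (3.54% and 2.88% of all genes, edgeR adjusted p = 0.479, 0.674 and 0.744). Ly6a was at 419.5 CPM in CASIN 3 and at 48.9 to 162 CPM in the other libraries. Its value was 0.35 without the immunoglobulin-rich cells (edgeR adjusted p = 0.899) and -0.25 without CASIN 3 (edgeR adjusted p = 0.958). Of the T lineage, stromal, mature T and NK and erythroid lists, 4, 2, 1 and 1 genes were tested, and at this level only Car2 was lower in aged against young members (3.72% of all genes; -0.66, edgeR adjusted p = 0.505). Of the mature B list 2 genes were tested, and Igkc was higher at an unadjusted p below 0.05 in aged and in CASIN against young members (4.22% and 2.23% of all genes). With the replicate number as a block Igkc passed in both comparisons. Without the 4 immunoglobulin-rich cells its log2 values were 2.73 and 2.91 (edgeR adjusted p = 0.452 and 0.568). Among the Procr+ cells without Flt3 or Dntt, an Igkc UMI was found in 2.49% and 51.9% in young 1 and 3 and in 0 of 266 cells in young 2 (exact binomial upper bound 1.38%). The share was 3.35%, 77.8% and 97.2% in aged 1, 2 and 3. It was 16.7%, 51.6% and 66.0% in CASIN 1, 2 and 3. The part of free RNA in these values was not tested. Ighm, a B lineage gene, had 3.18 in aged against young members (edgeR adjusted p = 0.540) through the immunoglobulin-rich cells of aged 3, and -0.20 without them.

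Cdc42, the target of CASIN, did not differ in transcript level between the groups past the threshold. It stood at 379, 363 and 436 CPM in the members of young 1, 2 and 3, 360, 371 and 352 CPM in those of aged 1, 2 and 3, and 364, 320 and 420 CPM in those of CASIN 1, 2 and 3. The log2 values were -0.10 (SE 0.138) for aged against young, 0.05 (SE 0.139) for CASIN against aged and -0.05 for CASIN against young, each of which changed sign under at least 1 alternative processing, and CASIN acts on the activity of the protein, which transcript counts do not measure.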

How the data were processed

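Single LSK cells were profiled with 10x 3' v3 chemistry. The deposited values are raw UMI counts per gene and barcode, which the authors made with Cell Ranger 3.1.0 on mm10. Barcodes with 1000 to 40000 UMIs, at most 6000 genes and at most 10% mitochondrial UMIs were kept. Doublets were called with Scrublet in scanpy 1.11.5 and kept. Members and gene lists were chosen with earlier results of these data known.

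Counts were summed over members per library and compared with edgeR 4.0.16 in R 4.3.3 (quasi-likelihood test, TMM, filterByExpr, sequencing batch as a term, all 9 libraries, Benjamini-Hochberg adjustment, threshold 0.05), with Dntt, Il7r and Ly6d left out. Group effects in members and in Dntt+Flt3+ cells were compared in one fit with library as a block. Up to 10 genes a direction with the largest change among those passing in the same direction in both batches, and up to 4 per list (3 where none passed), were named. Dusp5 in aged against young, Mki67, the promoters shown, the 5 B lineage genes and the Igkc limit of 1% were chosen after values were seen. Shares and summed CPM were compared with exact permutation tests (scipy 1.17.1), and intervals are Clopper-Pearson. DESeq2 1.42.0 and other settings were tried as alternatives. The tests were also run on simulated data with the same spread for all genes, no batch effect and changes in the aged group only. That run does not show how the tests behave with the batches of these libraries.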

Additional observations from a re-analysis of the deposited data

Results flagged for a closer look

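The results below drew attention because the change between groups in members differed from the change in the Dntt+Flt3+ cells of the same libraries, by edgeR's quasi-likelihood test of the difference with Benjamini-Hochberg adjustment. For aged against young the log2 difference, members minus Dntt+Flt3+ cells, was -0.98 for Hmgb2, -1.20 for Hist1h2ap, -1.18 for Birc5, -0.76 for Hist1h2ae, -1.24 for Mki67, -0.94 for H2afx, -1.17 for Hist1h1e and 3.04 for Cxcl10. For CASIN against aged it was 0.78 for Hmgb2, 1.28 for Hist1h2ap, 0.80 for Hist1h2ae, 1.29 for Hist1h1e, 1.17 for Hist1h4d, -0.81 for Ier3 and -1.16 for Zbtb20.

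The remaining genes had few UMIs or nearly all of them in 1 library, so that only the edgeR adjusted p is given. Ighg2b, an antibody heavy chain gene, had 7.03e-10 for aged against young and 5.70e-15 for CASIN against aged, and in the latter 0.934 without the 4 members rich in immunoglobulin and 0.782 without CASIN 3. For aged against young it had 0.103 with no class by batch term and 1.0 without the cells with all 5 B lineage genes. Cd36 had 0.0190 for aged against young, with 4, 14 and 0 UMIs in young, aged and CASIN members. All 14 were in aged 2, and 102 of its 106 UMIs in the Dntt+Flt3+ cells were in young 3. It passed in 8 of the 11 alternatives that tested it. Without young 3 or with no class by batch term Cd36 was not among the genes called. For CASIN against aged, Cxcl10 had 0.000884, with 17, 84 and 5 UMIs, and Ly6k had 0.00780, with 1, 0 and 58 UMIs, 36 of them in CASIN 3. Without the 4 members rich in immunoglobulin Ly6k had too few UMIs to be tested, and without CASIN 3 it had 0.782. Ly6k was also not called with no class by batch term, and it passed in 9 of the 12 alternatives that tested it. Cxcl10 for aged against young had 0.0867 without those 4 members, and for CASIN against aged 0.221 without CASIN 2.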

How the results depend on the processing

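For aged against young members, the number of genes past the threshold was 1 as reported, 14 with DESeq2, 78 with no filter on low counts, 0 with no batch term, 0 with only the 2 groups compared, 3 with cells left out whose log gene number lay over 0.4 from its fit on log UMIs (residual filter), 3 without the members over the Igkc limit, 0 with the stricter rule, and 0 to 8 when 1 library was left out. For CASIN against aged it was 0 as reported, 3 with DESeq2, 1 with DESeq2 size factors, 57 with no filter and 0 to 6 with 1 library left out. For CASIN against young it was 3 as reported, 50 with no filter, 0 with no batch term, 14 with only the 2 groups, 0 with the stricter rule and 0 to 3 with 1 library left out. Differences from the Dntt+Flt3+ cells numbered 35 with no filter and 4 to 38 with 1 library left out for aged against young. For CASIN against aged they numbered 32 with no filter, 16 against all Dntt cells, 16 without the Igkc members and 3 to 39 with 1 library left out, and for CASIN against young 13, 5 without the Igkc members, 3 without the members with all 5 B lineage genes, and 0 to 4. Leaving out the Igkc members, the members with all 5 B lineage genes, or all mitochondrial limits was chosen after seeing the data. The cause of these shifts was not tested.

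With the replicate number as a block beside the batch term, 7, 0 and 9 genes passed for aged against young, CASIN against aged and CASIN against young. The numbers were not taken as pairs, since some same-numbered libraries lay in different batches (young 2 with aged 2 at a correlation of -0.376, aged 2 with CASIN 2 at -0.408). Within a batch, same-numbered libraries of different groups correlated at 0.450 to 0.623. Those with different numbers correlated at 0.356 to 0.532.

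Directions turned in several values. With 1 library left out, the difference in share ran from -0.0478 to 2.21 points for CASIN against aged and from -2.22 to 0.126 for CASIN against young, which was 1.13 of cells with Dntt. The S phase sum ran from -777 to 153 CPM, -255 to 676 and -397 to 106 for the 3 pairs in the order above, with 28.2 for the last when scaled by TMM. The G2 and M phase sum ran from -1487 to 303 for CASIN against young, and its batch 2 difference for CASIN against aged was -798 under the stricter rule. The B lineage sum ran from -775 to 9481 for aged against young, with -1203 under the stricter rule and -759 without the Igkc members, and from -10081 to 176 for CASIN against aged, with 143 without the Igkc members. Cdc42 turned to 0.0643 (stricter rule) for aged against young, to -0.0095 (mitochondrial limit of 5%), -0.0759 (stricter rule), -0.0083 (without aged 2) and -0.0064 (without CASIN 3) for CASIN against aged, and to 0.0149 (without CASIN 2) for CASIN against young. With 1 library left out it reached 0.143 for CASIN against aged and -0.0878 for CASIN against young at the other end. Ighm for aged against young turned to -0.201 (residual filter and without the Igkc members), -0.276 (stricter rule) and -0.190 (without aged 3), and reached 4.58 without aged 1, and Cd36 to -2.12 without aged 2. Members without any UMI of the mature lymphocyte lists, 17 cells, were too few for a fit, which was not run. Libraries with 11 to 20 members set the limit on depth.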
